A study of Mus musculus with 4 samples.

Results

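A set of 9 genes that mark mature B cells was followed through 4 J558 allograft tumours: Pax5, Ebf1 and Bach2 (transcription factors), Cd79a, Cd79b and Blk (receptor components and a receptor kinase), and Ms4a1, Cd22 and Cr2 (surface genes). They were taken by symbol from the gene count tables, where all 9 of 9 were found among 24421 genes. J558 is a mouse plasmacytoma line; the cells were injected under the skin of the right flank of female BALB/c mice, whose own immune and stromal cells also enter the tumour. The 2 vehicle-treated tumours (Vehicle-1, Vehicle-2) came from mice given 0.5% methylcellulose by mouth, and the 2 treated tumours (TAK-931-1, TAK-931-2) from mice given TAK-931, an inhibitor of the replication kinase CDC7, at 60 mg/kg once daily, all collected at day 6. The mice of the study were 4 weeks of age. Each numbered sample is read here as 1 tumour with 1 RNA library; the labels do not state that the samples are separate animals, and p-values then measure only the spread between these samples. Every level below is that of tumour and host cells together. Where values are given in pairs, "with vehicle" lists Vehicle-1 then Vehicle-2, and "with TAK-931" lists TAK-931-1 then TAK-931-2.

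A B cell becomes a plasma cell by turning off much of its B cell programme. Pax5 and Ebf1 hold that programme in place, Bach2 delays the switch by repressing Prdm1, and the product of Prdm1 in turn represses Pax5. Cd79a and Cd79b encode the paired signalling chains of the B cell receptor, Blk encodes a Src-family kinase next to it, Ms4a1 encodes a membrane protein targeted by rituximab, Cd22 encodes an inhibitory lectin that binds sialic acid, and Cr2 encodes a complement receptor of B cells and follicular dendritic cells. J558L, a heavy-chain loss variant of J558, is known as a line without the Cd79a product.

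Upstream sequence is shown for the receptor chain gene that was nearly silent and for the surface gene with the largest fitted difference of the 6 tested members. Both are the 250 bases before the RefSeq transcription start (GRCm38.p6), written 5′ to 3′ on the strand of the gene. Cd79a lies at chr7:24897247-24897496 on the plus strand, and Cd22 at chr7:30879029-30879278 on the minus strand. Capitals mark a match to CCCNNGGG, a palindromic form of the EBF1 motif, searched on both strands with ATGCAAAT (the octamer) and GAGGAAGT (a PU.1-like site).
Cd79a: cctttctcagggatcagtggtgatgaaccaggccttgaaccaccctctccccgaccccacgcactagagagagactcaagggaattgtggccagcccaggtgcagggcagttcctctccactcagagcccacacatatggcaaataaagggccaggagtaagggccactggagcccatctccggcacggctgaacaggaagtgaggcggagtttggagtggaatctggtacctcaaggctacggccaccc
Cd22: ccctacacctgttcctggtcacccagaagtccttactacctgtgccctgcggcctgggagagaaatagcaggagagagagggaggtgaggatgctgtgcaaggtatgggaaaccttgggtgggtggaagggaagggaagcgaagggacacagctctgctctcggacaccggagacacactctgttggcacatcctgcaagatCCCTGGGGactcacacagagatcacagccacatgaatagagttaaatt
In windows of 250 bases before to 50 bases after the start, Cd22 held 1 match to CCCNNGGG, beginning 48 bases before the start, and none to the other letters, and the Cd79a, Pax5, Ebf1, Bach2 and Cr2 windows held no match to any of these letters. Of 32851 windows of all genes, 13.7% held CCCNNGGG, 1.74% ATGCAAAT and 3.2% GAGGAAGT. Windows were found for 6 of the 9 genes; Cd79b, Ms4a1 and Blk had no entry. These matches are letters only and say nothing of binding, and imperfect EBF1 sites, such as the known one of the Cd79a promoter, do not have these letters. The counted exons of Cd22 reach to 30880342, upstream of this start, so the counted annotation holds exons before it.

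Across libraries, depth was between 16487902 and 19589339 counts. TAK-931-1 stood apart: Ptprc, the pan-leukocyte gene, was 631.8 CPM (counts relative to the TMM-scaled total of each library) there against 127.5 in TAK-931-2 and 20.8 to 36.6 in the vehicle-treated libraries, whereas Trap1a, an antigen gene of J558 cells, was 355 CPM there against 1095 to 1234 in the other libraries. Results are therefore also given without TAK-931-1. In bulk tumours, fewer cells of a type and less RNA per cell cannot be told apart.

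The labels call the cell type a B lymphocyte, but the members were far from an even set. Per exon length, Cd79b was high, Ms4a1 was moderate, and the remaining 7 members were low or not detected in vehicle-treated tumours. In TPM (counts divided by exon length and scaled to a common total, which allows genes to be compared), the vehicle levels were 278 ± 43.2 for Cd79b, 26.1 ± 0.326 for Ms4a1, 1.03 ± 0.0604 for Ebf1, 0.666 ± 0.223 for Bach2, 0.549 ± 0.0315 for Cd22, 0.399 ± 0.564 for Cd79a, 0.0428 ± 0.0605 for Blk and 0.0339 ± 0.048 for Cr2 (SD, n = 2). Pax5 had no count. From Bach2 downwards, neighbours in this order overlapped between the 2 vehicle-treated libraries, so that their order was not resolved. In TAK-931-treated tumours the TPM levels were 184 ± 105 for Cd79b, 30.7 ± 27.1 for Ms4a1 and 10.9 ± 8.37 for Cd22 (SD, n = 2), with Cd22 in the third place. In the treated libraries, Cd22 exceeded Ms4a1 in TAK-931-1 (16.8 against 11.5 TPM) and was below it in TAK-931-2 (5.01 against 49.9 TPM). Next came Ebf1 at 1.99 ± 1.24, Cd79a at 1.49 ± 0.9, Bach2 at 0.976 ± 0.284, Blk at 0.214 ± 0.0871 and Cr2 at 0.0366 ± 0.0518 TPM (SD, n = 2), and among these Ebf1, Cd79a and Bach2 overlapped. Of 13 plasma cell genes, 7 were above Cd79b in TPM in all 4 libraries, 4 were below it in all 4 and 2 were above it in some. Of those above it, Jchain, which joins immunoglobulin units, had between 2666 and 7524 TPM over the 4 libraries, Sdc1, a surface proteoglycan, between 141 and 404 TPM, and Xbp1, a factor of the secretory programme, between 300 and 842 TPM.

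**Figure D1:**
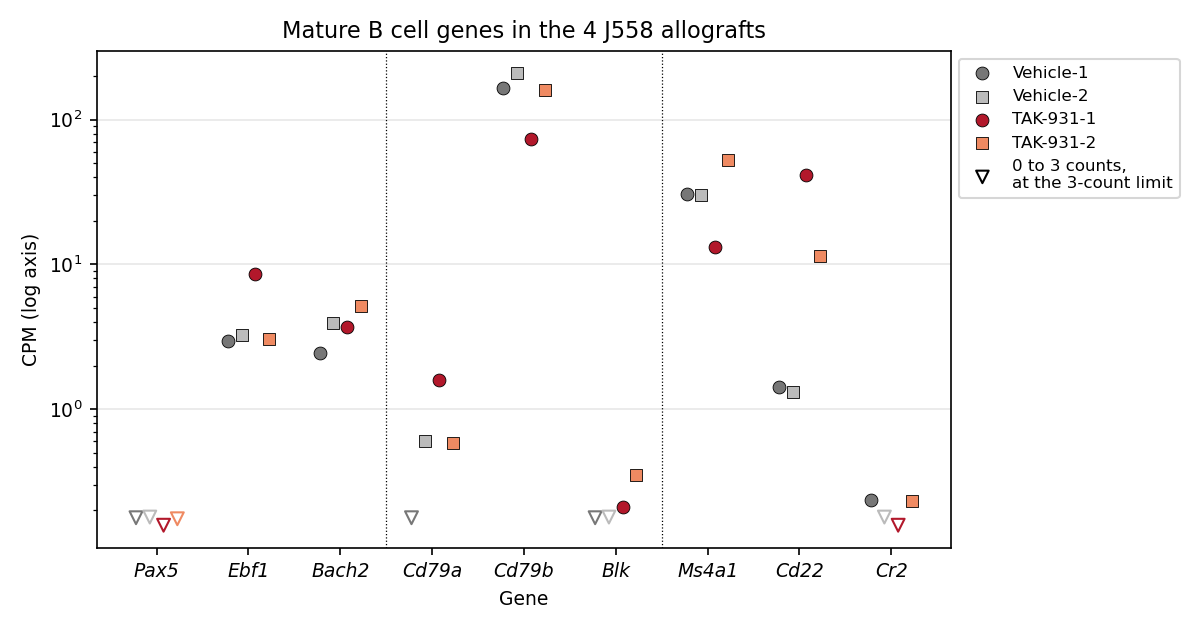
Level of each mature B cell gene (CPM, log axis) in each of the 4 libraries; grey points are vehicle-treated and red or orange points TAK-931-treated tumours, and open triangles mark 0 to 3 counts, drawn at the 3-count limit. Ms4a1 lies on either side of the vehicle-treated libraries in the treated ones, Pax5 has no count in any library, and Cd22 is near 1.4 CPM in both vehicle-treated libraries and at 41.6 and 11.4 CPM in the treated ones.

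Among the transcription factors, Pax5 was not detected and Ebf1 and Bach2 were low. Pax5 (chromosome 4, 44531506 to 44710440, mm10) had 0 counts in all 4 libraries over 1208 bases of counted exon. A count of 0 allows up to 3 counts per library, which is 0.158 to 0.18 CPM, for counting error only and too narrow if both mates of a pair were counted. The counted exons stop 6749 bases before the 3′ end of the gene in GENCODE vM21, so that reads from that stretch would not have been counted.

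Ebf1 (chromosome 11, 44618100 to 45008096) had 50 and 54 counts with vehicle, then 162 and 52 counts with TAK-931. These are 2.96, 3.24, 8.52 and 3.03 CPM in the same order. TAK-931-1 alone was high, and TAK-931-2 lay within the vehicle range. The log2 fold change was 0.90 (SE 0.70, 95% interval −0.98 to 2.78), with an adjusted p of 0.466 by edgeR's quasi-likelihood test, and it was −0.03 without TAK-931-1. Ebf1 is also used by fibroblasts, pericytes and adipocytes. Of the 8 fibroblast and pericyte genes, 7 were higher in both treated libraries than in both vehicle-treated ones (29.9% of all tested genes were), and their summed level was 1892 and 2150 CPM with vehicle, then 14745 and 5116 CPM with TAK-931. The 7 adipocyte genes summed to 46.5 and 70.3 CPM with vehicle, then 293 and 28.9 CPM with TAK-931, most of it Fabp4 (40.3 and 61.4 CPM, then 254 and 25.7 CPM), which endothelial cells and macrophages also use; of these, Lep was at 0 in 3 libraries, with 4 counts in TAK-931-1, Plin1 was at 0 in Vehicle-1 and Plin4 at 0 in TAK-931-2. The part of these cells in the Ebf1 level was not tested.

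Bach2 (chromosome 4, 32417435 to 32586108) had 2.43 and 3.95 CPM with vehicle, then 3.68 and 5.13 CPM with TAK-931. The groups overlapped, and the log2 fold change was 0.46 (SE 0.58, 95% interval −1.08 to 2.01) and ran from 0.16 (without Vehicle-1) to 0.84 (without Vehicle-2) with 1 library left out, at 0.68 without TAK-931-1 and 0.185 without TAK-931-2. Its exons share 396 bases with Bach2os on the opposite strand, and the strand setting of the counting was not stated, so that reads of these genes may not be separated.

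The paired receptor chains were at very unequal levels. Cd79b (chromosome 11, 106311341 to 106314529) had 2811 and 3485 counts with vehicle, then 1405 and 2727 with TAK-931. Cd79a (chromosome 7, 24897511 to 24902197) had 0 and 10 counts with vehicle, then 30 and 10 with TAK-931. Per exon length, Cd79b was 386-fold Cd79a in Vehicle-2, 51.9-fold and 302-fold in the treated tumours, and 1038-fold in Vehicle-1 with Cd79a, which had no count there, set to the 3-count limit. That limit is too narrow if both mates of a pair were counted, so the last value is no firm bound. By TPM, Cd79b ranked 623rd and 453rd of all genes with vehicle, then 1383rd and 573rd with TAK-931.

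Cd79b was 167 and 209 CPM with vehicle, then 73.9 and 159 CPM with TAK-931. Both treated libraries were below both vehicle-treated ones, but TAK-931-2 lay only just below Vehicle-1, and the groups overlapped when libraries were scaled by their totals alone. The log2 fold change was −0.69 (SE 0.44, 95% interval −1.87 to 0.50), with an adjusted p of 0.393 by edgeR, and it was −0.24 without TAK-931-1.

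Cd79a was 0 and 0.599 CPM with vehicle, then 1.58 and 0.583 CPM with TAK-931. With 10 counts in both Vehicle-2 and TAK-931-2, the groups overlapped. Its log2 fold change was 1.83 with a wide interval of −2.46 to 6.12 (edgeR, 95%), became 0.94 without TAK-931-1 and 0.84 without Vehicle-1, and has no interpretable value without Vehicle-2, since the remaining vehicle-treated library had no count. Blk (chromosome 14, 63372837 to 63417187) had 0 and 2 counts with vehicle, then 4 and 6 with TAK-931, all with counting intervals that overlap, and was too low to be tested.

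Among the surface genes, Cd22 was higher in both treated tumours, Ms4a1 lay on opposite sides of the vehicle range in them, and Cr2 was at the limit of detection. Cd22 (chromosome 7, 30865404 to 30880342) had 24 and 22 counts with vehicle, then 791 and 195 with TAK-931. These are 1.42, 1.32, 41.6 and 11.4 CPM. The vehicle-treated libraries were nearly equal and both treated libraries were well above them, at 30.4-fold and 8.30-fold the vehicle mean. With 95% counting intervals of 15.4 to 35.7 and 13.8 to 33.3 counts in the vehicle-treated libraries, the size of these folds is uncertain. The log2 fold change was 4.27 (SE 0.81, 95% interval 2.09 to 6.45). By edgeR's quasi-likelihood test the unadjusted p was 0.00495 and the adjusted p over all genes was 0.275, so that Cd22 did not pass 0.05. DESeq2 gave it an adjusted p of 2.245e-06, the lowest over the alternatives run, which reached up to 0.5464 (edgeR without Vehicle-2). Without TAK-931-1 the log2 fold change was 3.04, and without TAK-931-2 it was 4.90.

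Leukocyte genes were higher in the same libraries as Cd22. For each count of Ptprc there were 0.0388 and 0.0634 counts of Cd22 with vehicle, then 0.0658 and 0.0892 with TAK-931. This range was narrower than that of Cd22 itself. Both treated libraries were still higher, with TAK-931-1 only just above Vehicle-2. The Vehicle-2 ratio rests on 22 counts of Cd22 (95% counting interval 13.8 to 33.3). The separation of the treated libraries from Vehicle-2 was thus not resolved from counting error. This ratio was chosen after the values were seen. All 8 of 8 T cell genes and all 8 of 8 macrophage genes were higher in both treated libraries than in both vehicle-treated ones. Of all tested genes, 29.9% were higher in this way. The T cell genes summed to 31.1 and 21.1 CPM with vehicle, then 1121 and 90.7 CPM with TAK-931. The macrophage genes summed to 543 and 458 CPM, 7885 CPM and 1417 CPM, in the same order. Of the 6 conventional dendritic cell genes 5 were higher, and their sums were 25.6 and 21.7 CPM with vehicle, then 282 and 57 CPM with TAK-931. Of the 6 plasmacytoid dendritic cell genes 3 were higher and 2 lower (29.9% and 32.8% of all tested genes), and they summed to 118 and 106 CPM, 56.6 CPM and 94.3 CPM, most of it Ly6d and Cox6a2 with vehicle; Ccr9 was at 0 in Vehicle-2. The part of these cells in the Cd22 level was not tested.

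Ms4a1 (chromosome 19, 11250603 to 11266151) had 515 and 503 counts with vehicle, then 252 and 904 with TAK-931. These are 30.5, 30.1, 13.3 and 52.7 CPM. The treated libraries lay on either side of the vehicle-treated ones, at 0.437-fold and 1.74-fold their mean. The log2 fold change was 0.12 (SE 0.69, 95% interval −1.74 to 1.98; adjusted p 0.927 by edgeR), 0.79 without TAK-931-1 and −1.22 without TAK-931-2, so the direction rested on which treated tumour was used. The counted exons of Ms4a1 stop 928 bases before its 3′ end in GENCODE vM21. Cr2 (chromosome 1, 195136811 to 195176715) had 4 and 0 counts with vehicle, then 0 and 4 with TAK-931, and no difference was detectable at this depth. The 3 follicular dendritic cell genes, which mark the other main source of Cr2, summed to 70.3 and 68.7 CPM with vehicle, then 116 and 88.3 CPM with TAK-931, most of it Mfge8 (69.2 and 67.6 CPM, then 113 and 79.8 CPM), and 2 of the 3 were higher in both treated libraries (29.9% of all tested genes). Their part in the Cr2 counts was not tested.

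Cd79b and Ms4a1 were also set against Trap1a and against Jchain, choices made after the values were seen, and the outcome depended on which of these was used. For each count of Trap1a there were 0.148 and 0.191 counts of Cd79b with vehicle, then 0.208 and 0.129 with TAK-931. The groups overlapped on this scale, with TAK-931-1 the highest. For each count of Jchain there were 0.0328 and 0.0369 counts of Cd79b with vehicle, then 0.0236 and 0.0196 with TAK-931, lower in both treated libraries. The Ms4a1 ratio to Trap1a was 0.0271, 0.0275, 0.0373 and 0.0427 in the same order, higher in both treated libraries. Its ratio to Jchain was 0.00601, 0.00533, 0.00423 and 0.00649, and the groups overlapped.

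**Figure D2:**
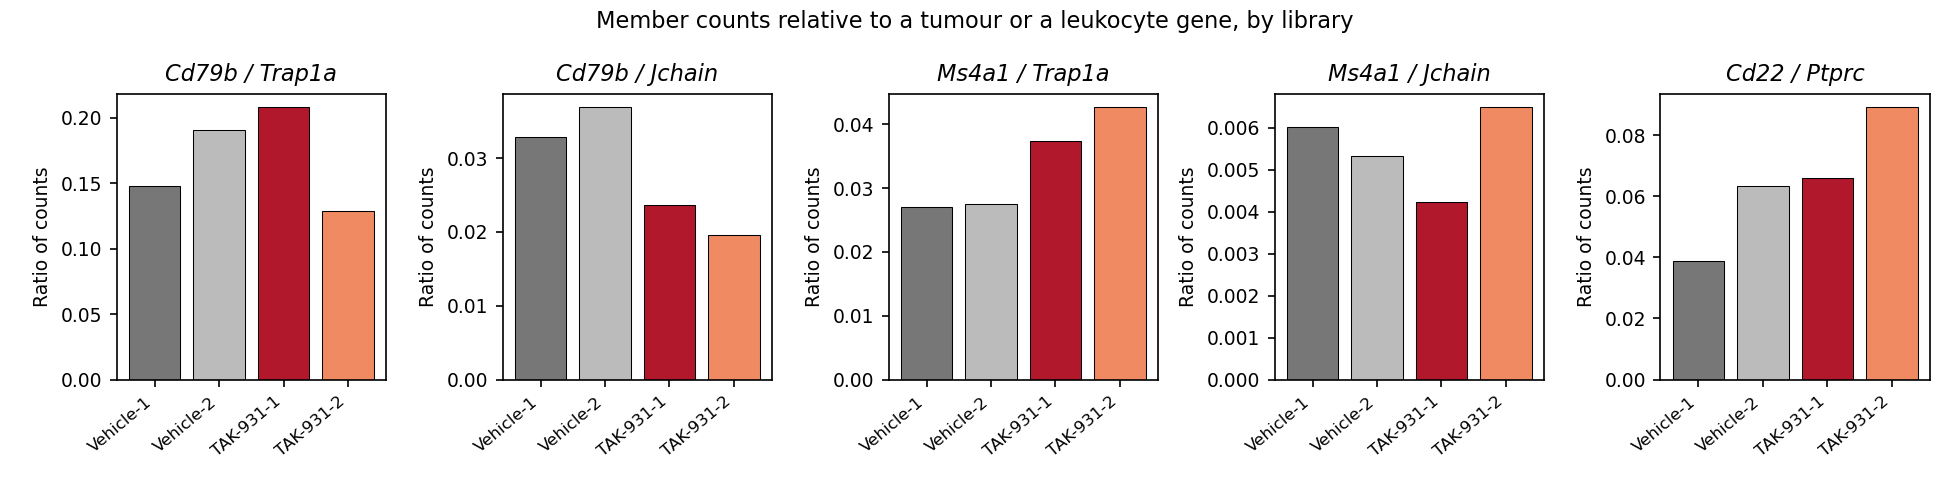
Counts of Cd79b and of Ms4a1 divided by counts of Trap1a (a J558 antigen gene) and by counts of Jchain (a plasma cell gene), and of Cd22 divided by counts of Ptprc (a leukocyte gene), with 1 bar for each library. Cd79b per Trap1a runs from 0.129 to 0.208 with the groups overlapping, whereas per Jchain both treated libraries are lower. Ms4a1 is higher in both treated libraries per Trap1a but overlaps per Jchain. Cd22 per Ptprc runs from 0.0388 to 0.0892, higher in both treated libraries but within counting error of Vehicle-2.

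To ask which of the 9 genes differed with treatment, the groups were compared over all 13669 genes that passed the filter on low counts. Of the 9 members, 6 passed it (Ebf1, Bach2, Cd79a, Cd79b, Ms4a1 and Cd22); Pax5, Blk and Cr2 did not. No member passed an adjusted p of 0.05 in edgeR, nor did any gene (0% of genes tested), while limma-voom called 0 genes and DESeq2 called 1421. At an unadjusted p under 0.05, edgeR gave 2475 genes (18.1%), of which Cd22 was the 1 member, among the 11.6% that were higher. Groups did not overlap for 2 of the 6 tested members, Cd22 (higher) and Cd79b (lower), against 62.7% of all tested genes. The count moved with the scaling, to 2 higher and 1 lower with median-of-ratios factors. With 6 genes, no difference from that background can be read.

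**Figure D3:**
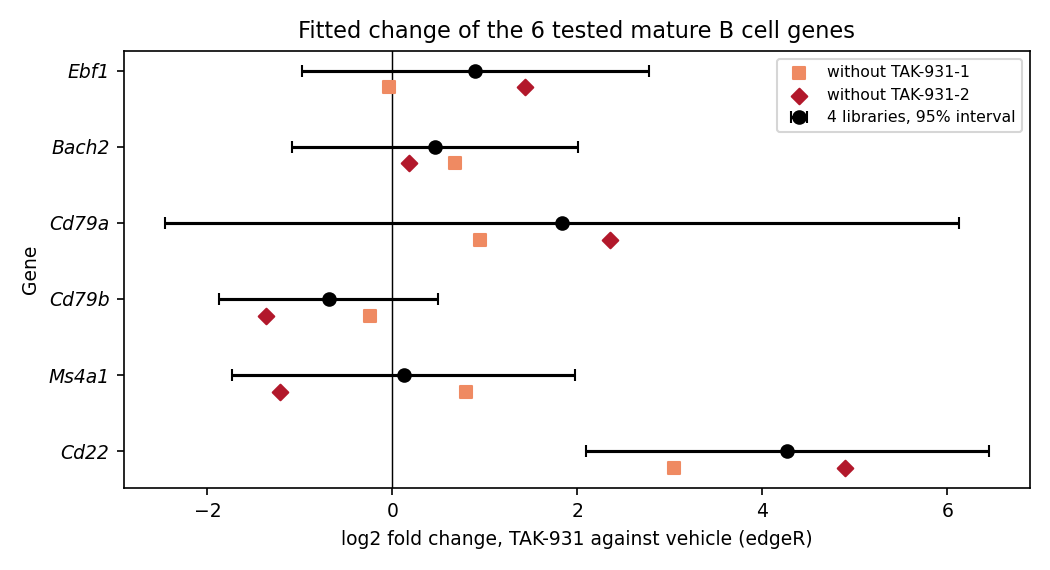
Fitted log2 fold change of TAK-931-treated against vehicle-treated tumours for the 6 tested members (black points, with 95% intervals from edgeR), beside the values without TAK-931-1 (orange squares) and without TAK-931-2 (red diamonds). The interval of Cd22 runs from 2.09 to 6.45 before adjustment over genes, the other 5 intervals include 0, and Ms4a1 changes side with the treated library left out.

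The summed level of the 9 genes was 204 and 248 CPM with vehicle, then 143 and 232 CPM with TAK-931. The groups overlapped, with a difference of mean log2 sums of −0.31 (two-sided exact permutation p = 0.6667; the smallest that 2 against 2 libraries allow is 0.3333). Its direction turned with 1 library left out, at 0.046 without TAK-931-1 and −0.66 without TAK-931-2. Cd79b made up 81.6% and 84.1% of the members' counts with vehicle, then 51.8% and 68.4% with TAK-931. Without Cd79b, the sums were 37.6 and 39.4 CPM in vehicle-treated and 68.8 and 73.4 CPM in treated tumours, and the difference was 0.89, opposite in sign (exact permutation p = 0.3333, the smallest possible). A different gene made up most of this sum in each treated library, Cd22 with 41.6 CPM in TAK-931-1 and Ms4a1 with 52.7 CPM in TAK-931-2.

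The genes whose CPM pattern over the 4 libraries was nearest to each tested member, by Euclidean distance of log2 CPM centred on the mean of each gene, were listed as a description. Nearest to Cd22 were Oas2 (distance 0.277), an antiviral gene, Dscam (0.305) and C1qtnf3 (0.308), and 11 of 12951 other genes lay within 0.5. Dscam had 0 CPM in both vehicle-treated libraries, then 3.26 and 1.05 CPM with TAK-931, so its distance rests in part on the prior count of 2. Nearest to Cd79b were Ppm1d (0.0604), Irak1bp1 (0.0614) and Ftsj1 (0.0877), with 1459 genes within 0.5. Nearest to Ms4a1 were Tbr1 (0.0814), Plcxd2 (0.0875) and Creb3l2 (0.112), with 161 genes within 0.5. For Ebf1 they were Nsmf, Mb21d2 and Nov (630 within 0.5), for Bach2 Rcan2, Snora65 and Rnf223 (255), and for Cd79a Mboat1, Stac3 and Eda2r (5). With 4 libraries, many genes share a pattern.

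Other genes of the B cell programme also held some that were higher in both treated tumours, like Cd22, and some on opposite sides of the vehicle-treated tumours, like Ms4a1. Of 48 such genes, 47 were tested, 0 passed an adjusted p of 0.05 in edgeR, and 20 were higher and 1 lower at an unadjusted p under 0.05 (11.6% and 6.55% of all genes). The groups did not overlap for 27 higher and 7 lower genes, against 29.9% and 32.8% of all genes. Against both vehicle-treated libraries, 29 of the 47 were above and 16 below for TAK-931-1, and 38 were above and 7 below for TAK-931-2. Of all tested genes, at least 29.9% were above and 32.8% below in each treated library, being those without overlap. The full shares for 1 treated library were not computed. Several of these genes are also used by myeloid cells or T cells, whose markers were higher in the same libraries; their part was not tested.

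Of the 16 tested genes of receptor signalling, 8 were higher and 4 lower without overlap (29.9% and 32.8% of all tested genes), with a median log2 fold change of 0.64 against 0.02 for all tested genes. In written order, Cd81, a tetraspanin, had 224 and 223 CPM with vehicle, then 163 and 246 CPM with TAK-931. Lyn, a Src-family kinase of B cells and myeloid cells, had 41.6 and 32.7 CPM, then 320 and 84 CPM. Syk, which the phosphorylated receptor chains recruit, had 155 and 148 CPM, then 319 and 217 CPM. Btk, a kinase downstream of Syk, had 82.8 and 84.5 CPM, then 44.3 and 70.3 CPM. Lyn and Syk were thus higher and Btk lower in both treated libraries, none past an adjusted p of 0.05 in edgeR.

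Of the 17 B cell surface genes, 10 were higher and 1 lower without overlap (29.9% and 32.8% of all tested genes), with a median log2 fold change of 1.16. Cd37, also a tetraspanin, had 47.9 and 61.2 CPM with vehicle, then 77.4 and 83 CPM with TAK-931. Cd40, the receptor for T cell help, had 5.81 and 1.56 CPM, then 25.4 and 20.5 CPM. Cd72, like Cd22 an inhibitory coreceptor, had 10.1 and 7.25 CPM, then 163 and 41.3 CPM. Fcer2a, the low-affinity IgE receptor gene, had 3.2 and 3.89 CPM, then 1.16 and 14.7 CPM, on both sides of the vehicle range. Fcrla, Fcrl1, Cd24a and Vpreb3, named after their values were seen, lay like Ms4a1 under the vehicle range for TAK-931-1 and over it for TAK-931-2.

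Of the 14 other B cell transcription factor genes, 9 were higher and 2 lower without overlap (29.9% and 32.8% of all tested genes), with a median log2 fold change of 1.21. Spib, an Ets factor, had 1.42 and 0.959 CPM with vehicle, then 6 and 3.96 CPM with TAK-931. Pou2af1, the octamer coactivator that plasma cells retain, had 5220 and 4872 CPM, then 1179 and 3996 CPM. Pou2f2, its octamer-binding partner, had 36.7 and 39.5 CPM, then 28.6 and 42.5 CPM. Irf8, used by B cells and by macrophages and dendritic cells, had 34.6 and 12.3 CPM, then 301 and 83.2 CPM.

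**Figure D4:**
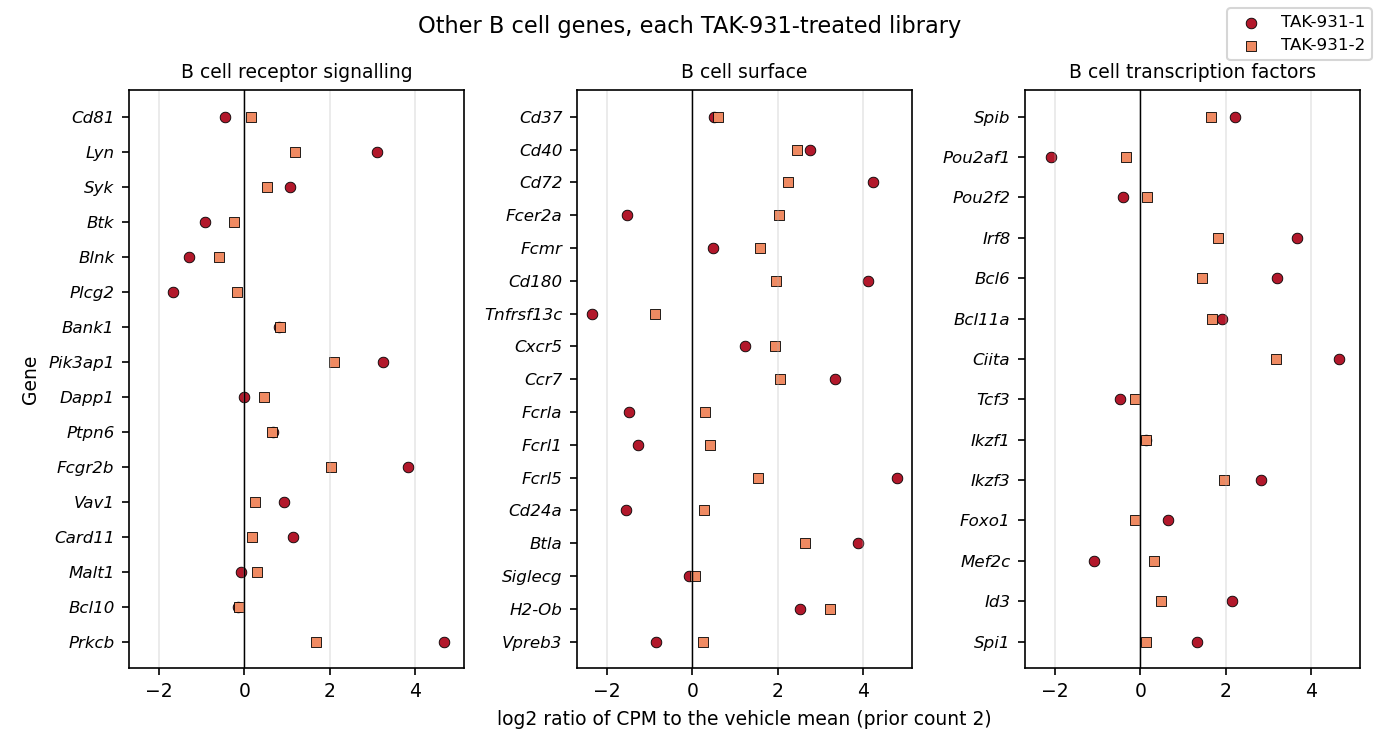
Log2 ratio of CPM to the vehicle mean in TAK-931-1 (red circles) and TAK-931-2 (orange squares) for the 47 tested genes of the B cell programme that are not members, in 3 lists. Genes such as Cd72 and Irf8 lie above 0 in both libraries, whereas Fcer2a and Cd24a lie on opposite sides of 0.

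The early B cell and plasma cell genes were read as a frame for the members. Of 5 early B cell genes, Igll1, Rag1 and Rag2 had 0 counts in all 4 libraries, Vpreb1 had 4 counts in TAK-931-1 alone, and Dntt had 0 and 0 counts with vehicle, then 10 and 2 with TAK-931. Of 13 plasma cell genes, 1 was higher and 6 were lower without overlap (29.9% and 32.8% of all tested genes), and the median log2 ratio was −1.502 for TAK-931-1 but 0.09 for TAK-931-2, each against the mean of the vehicle libraries. Prdm1, the repressor of Pax5, had 172 and 166 CPM with vehicle, then 89.5 and 222 CPM with TAK-931. Irf4, which drives plasma cell formation, had 737 and 761 CPM, then 298 and 1669 CPM. Like Ms4a1, Prdm1 and Irf4 lay below the vehicle range in TAK-931-1 and above it in TAK-931-2. Xbp1 had 1059 and 1058 CPM with vehicle, then 376 and 972 CPM with TAK-931. Sdc1 had 696 and 691 CPM, then 241 and 587 CPM. Xbp1 and Sdc1 were thus lower in both treated libraries, unlike Ms4a1.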

How the data were processed

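Read counts per gene were deposited by the authors as 1 table per tumour (n = 2 per group), with no normalization. Per the submitters' processing notes, STAR 2.6.1c and featureCounts were used with mm10, and the column names mark uniquely placed reads; the strand setting was not stated. Another column, the exon length in bases, was also deposited and was used for TPM.

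Small counts were mostly even (17.9% to 23.9% of counts from 1 to 20 were odd), so both mates of a pair appear to be counted, and counting intervals and limits, which cover counting error only, are too narrow. A count of 0 was read as up to 3 counts.

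Genes were filtered with filterByExpr (minimum count 10) and compared by edgeR 4.0.16 (R 4.3.3), robust quasi-likelihood, TMM, treatment as the only term, two-sided, Benjamini-Hochberg adjustment over 13669 genes. DESeq2 1.42.0 and limma-voom (limma 3.58.1) were alternatives, beside other scalings, filters, halved counts, a replicate block and each library left out. CPM used TMM-scaled totals, and log2 ratios a prior count of 2. Groups came from the sample titles. Not every gene of the lists is reported here.

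The 9 members and the gene lists were chosen with earlier results of these data known. All members were named; of each list, up to 4 tested genes in written order, with Ptprc, Trap1a and Jchain as single markers; and the 3 nearest genes of each tested member with a mean of at least 1 CPM. Outside this rule, and chosen after their values were seen, are Fcrla, Fcrl1, Cd24a, Vpreb3, the early B cell genes, and Lep and Plin1, named for counts of 0.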

Additional observations from a re-analysis of the deposited data

How the results depend on the processing

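No member passed an adjusted p of 0.05 with all 4 libraries, except Cd22 in DESeq2 (log2 fold change 4.31). Ms4a1 turned negative under limma-voom (−0.23) and under the replicate block (−0.19). The number of genes past 0.05 was 0 in edgeR, 1421 in DESeq2 and 144 with the replicate block. Leaving out 1 library gave between 0 and 8424 genes, the calls arising without TAK-931-1 (3996) or without TAK-931-2 (8424), where the lone treated library is assumed to vary like the vehicle pair; Cd22 and Ms4a1 passed 0.05 in both (Ms4a1 in opposite directions), and Ebf1 and Cd79b without TAK-931-2. In these fits the log2 fold change ran from −0.034 to 1.44 for Ebf1, from −1.36 to −0.24 for Cd79b, from −1.22 to 0.79 for Ms4a1 and from 3.04 to 4.90 for Cd22. The summed level ran from −0.66 to 0.046, the latter without TAK-931-1, and was 0.89 without Cd79b. With library totals alone, 2 members were higher and 0 lower without overlap, and with median-of-ratios factors 2 were higher, against 1 and 1; the added gene was Cd79a, at 10 counts in both Vehicle-2 and TAK-931-2. The cause of these differences was not tested. Same-numbered libraries deviated together with a correlation of 0.00439 across genes, so the numbers were not taken as pairs. Depth limits Pax5, Blk, Cr2 and Cd79a, whose counts were at most 30. It also limits the vehicle level of Cd22, at 24 and 22 counts.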
